A study of Mus musculus with 18 samples.

Results

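The replication-dependent histone genes of the mouse were examined in open chromatin of the retina. They were taken as the protein-coding genes of the GENCODE M21 annotation (genome build mm10) whose symbol starts with Hist1h, Hist2h, Hist3h or Hist4h, which gave 67 of 21938 protein-coding genes outside mitochondrial DNA. The rule itself uses no measured value. ATAC-seq, in which a transposase cuts accessible DNA, had been run on whole retina of wild-type mice in 18 libraries, 3 in each of 6 groups. Retinas came from animals of 3 months (3mo) or 18 months (18mo), and at each age they were untreated, had been under raised intraocular pressure (IOP, 30 mmHg for 1 hour, tissue labelled as day 2), or were contralateral, the fellow eye of a treated one. The text of the study gives a later day for these libraries than the labels do. The groups therefore share genotype and tissue and differ in age and in the handling of the eye. Contralateral retinas are not from unhandled animals, and the untreated libraries carry other replicate numbers (4 to 6) than the IOP and contralateral ones (1 to 3). A treatment text common to all labels names dasatinib, but no label puts a library in a drug arm.

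Replication-dependent histone genes encode the bulk of the core histones H2A, H2B, H3 and H4 and the linker histone H1. Most are transcribed in S phase, when DNA is copied, lie in a few dense clusters, lack introns and end in a conserved stem-loop in place of a poly(A) tail. Subtype factors act at their promoters, among them the octamer factor Oct-1 at H2B genes and HINFP at H4 genes, with NPAT as a common coactivator. Nearly all cells of the adult retina have left the cell cycle. Replication-independent variants such as H3.3 and H2A.Z are encoded elsewhere and are made throughout the life of a cell.

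The members lie in 5 blocks set apart by more than 500 kb. The Hist1 genes fill a pair of blocks on chromosome 13, with 23 members at chr13:21715763-22043676 and 31 at chr13:23531050-23934851. Hist2 has 10 members at chr3:96219865-96270132, Hist3 has 2 at chr11:58948920-58956830, and Hist4h4 stands alone at chr6:136801553-136804415. By family there are 6 H1, 18 H2A, 18 H2B, 12 H3 and 13 H4 genes.

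The sequences upstream of 8 sets of members are shown because their peaks span the whole range found here, from the strongest to none. All are read from the GRCm38 assembly (mm10), and capitals mark matches on either strand to TATAAA (the box bound by TBP), to CCAAT (bound by NF-Y), to the octamer ATTTGCAT or to GGTCCG (a core of the HINFP element). The first pair is the stretch between the starts of a head-to-head H2A and H2B gene, on the plus strand. The segment between Hist1h2ac and Hist1h2bc, at chr13:23683949-23684198, had the strongest peak of all such pairs and that between Hist1h2ad and Hist1h2bf, at chr13:23574197-23574380, the weakest of the pairs called in every library.
Hist1h2ac and Hist1h2bc: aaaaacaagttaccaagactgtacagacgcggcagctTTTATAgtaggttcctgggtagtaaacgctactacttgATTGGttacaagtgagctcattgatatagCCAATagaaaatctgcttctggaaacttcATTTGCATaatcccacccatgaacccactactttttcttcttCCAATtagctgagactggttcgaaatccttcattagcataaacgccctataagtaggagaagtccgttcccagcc
Hist1h2ad and Hist1h2bf: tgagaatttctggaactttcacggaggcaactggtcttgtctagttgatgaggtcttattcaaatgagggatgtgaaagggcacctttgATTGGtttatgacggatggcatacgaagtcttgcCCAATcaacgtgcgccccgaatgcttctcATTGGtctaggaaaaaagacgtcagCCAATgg

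The other 6 are the 250 bases before the annotated start of 1 gene, in the direction of transcription. Hist1h2ba (chr13:23934157-23934406, minus strand) and Hist1h1t (chr13:23695564-23695813, plus strand) are the germ-cell members H2B and H1 and had no peak in any library. Hist1h4c (chr13:23698455-23698704, minus strand) had the strongest peak of the H4 genes, and Hist1h4b (chr13:23756763-23757012, plus strand) a weaker one. Hist2h3c1 (chr3:96246435-96246684, plus strand) and Hist1h3i (chr13:21783371-21783620, minus strand) were the highest and the lowest of the members called in every library. In Hist1h3i a CCAAT overlaps a GGTCCG of the other strand and both run together in capitals.
Hist1h2ba: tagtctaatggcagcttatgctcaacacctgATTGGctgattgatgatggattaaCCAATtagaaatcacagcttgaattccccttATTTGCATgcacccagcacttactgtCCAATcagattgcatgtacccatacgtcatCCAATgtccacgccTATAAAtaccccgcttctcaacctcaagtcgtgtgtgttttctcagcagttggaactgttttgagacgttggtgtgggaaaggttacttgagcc
Hist1h1t: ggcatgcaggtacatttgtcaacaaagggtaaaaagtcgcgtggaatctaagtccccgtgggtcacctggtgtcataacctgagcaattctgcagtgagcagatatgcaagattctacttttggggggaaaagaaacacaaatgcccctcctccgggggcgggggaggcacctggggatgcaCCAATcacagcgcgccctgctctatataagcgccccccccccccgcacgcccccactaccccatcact
Hist1h4c: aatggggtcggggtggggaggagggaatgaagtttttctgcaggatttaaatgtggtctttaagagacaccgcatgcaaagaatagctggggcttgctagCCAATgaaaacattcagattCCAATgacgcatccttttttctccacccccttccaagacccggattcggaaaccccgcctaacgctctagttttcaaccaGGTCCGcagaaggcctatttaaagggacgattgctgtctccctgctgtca
Hist1h4b: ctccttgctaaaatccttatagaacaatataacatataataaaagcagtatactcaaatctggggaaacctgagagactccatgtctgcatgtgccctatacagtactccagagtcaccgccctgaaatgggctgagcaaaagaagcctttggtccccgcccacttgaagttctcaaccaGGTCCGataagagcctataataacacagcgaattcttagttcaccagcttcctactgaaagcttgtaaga
Hist2h3c1: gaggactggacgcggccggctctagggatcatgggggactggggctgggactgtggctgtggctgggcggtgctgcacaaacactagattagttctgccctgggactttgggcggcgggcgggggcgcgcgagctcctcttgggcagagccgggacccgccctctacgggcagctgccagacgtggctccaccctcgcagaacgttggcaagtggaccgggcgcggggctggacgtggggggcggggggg
Hist1h3i: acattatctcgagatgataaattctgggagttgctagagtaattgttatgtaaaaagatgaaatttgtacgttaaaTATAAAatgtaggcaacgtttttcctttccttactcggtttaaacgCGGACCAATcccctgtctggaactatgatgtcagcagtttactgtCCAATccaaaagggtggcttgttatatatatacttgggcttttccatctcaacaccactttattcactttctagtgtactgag

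Motifs were counted on both strands over 250 bases before to 50 after the start of each of the 21938 genes. CCAAT was present at 56 of 67 members (83.6%) against 39.0% of all promoters, and TATAAA at 37 members (55.2%) against 12.6%. The octamer was present at 15 members (22.4%) against 1.57%, and GGTCCG also at 15 (22.4%) against 9.60%. The last pair was split by family. All 15 octamers were at H2A (7 of 18) and H2B (8 of 18) genes, many of which face each other across 1 shared stretch, while GGTCCG was at 12 of 13 H4 genes, 2 of 12 H3 genes and 1 H2B gene. CCAAT was at every H2A and H2B gene but at 4 of 13 H4 genes. Presence of these letters and of a peak did not always go together. The stretch before Hist1h2ba holds TATAAA, the octamer and 4 CCAAT matches and had no peak, whereas the 250 bases printed before Hist2h3c1, the member of highest mean rank, hold none of the 4 motifs, although the window counted, which runs past the start, holds a CCAAT. GC content of the members' windows had a median of 45.3%, against 55.0% for all genes.

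The 3′ stem-loop was searched by its published pattern over the last 200 bases of each gene and the 100 after it. It was found at 43 members (64.2%) and at 0.242% of all genes. Within the gene or 1 kb on either side of it, 66 of 67 members have a match. In these clusters such a match can be that of a neighbouring member, and the wider search was not made over all genes. The 3 commonest forms are shown with the stem in capitals. The first, found at 27 members of every family but H4, is given from Hist1h2ai (chr13:21716839-21716854, plus strand). The next, at 7 members, is from Hist1h2bl (chr13:21715718-21715733, minus strand), and the last, at 5 H4 genes and at no other family, from Hist1h4k (chr13:21750150-21750165, minus strand).
Hist1h2ai: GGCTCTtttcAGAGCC
Hist1h2bl: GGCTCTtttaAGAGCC
Hist1h4k: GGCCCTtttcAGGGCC

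A promoter was counted as called where a listed peak overlapped 1 kb before to 100 bp after any annotated start of the gene by at least 1 bp. Nearly all histone promoters were called at both ages and under every condition. In each library 61 to 63 of the 67 members were called (91.0% to 94.0%), against 55.3% to 61.4% of all protein-coding genes. The group means lay between 61.7 and 62.7 members with an SD of 0.577 to 1.15 (n = 3), so the group means lay within the spread of replicates. Over all 18 libraries, 59 members (88.1%) were called in every one, 4 in some and 4 in none. Of all protein-coding genes, 11354 (51.8%) were called in every library, 12.4% in some and 35.8% in none. The libraries list 36011 (18mo IOP 3) to 66160 (3mo contralateral 2) peaks, the only sign of their depth, since read counts per region were not analysed here. The peaks shared by neighbouring genes mean that the 63 members called in any library are not 63 separate measurements.

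**Figure D1:**
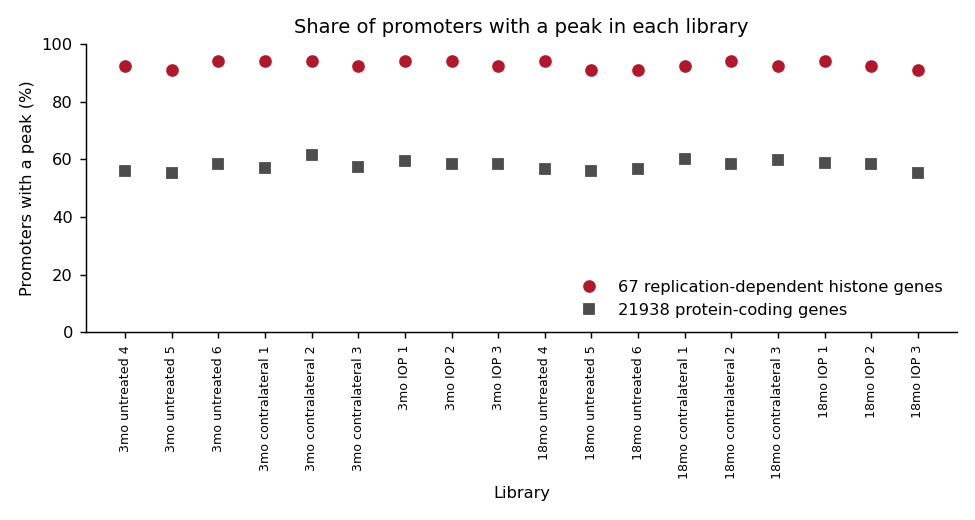
Share of promoters with a listed peak (%, vertical axis) in each of the 18 libraries (horizontal axis), for the 67 histone members (circles) and for 21938 protein-coding genes (squares). The members sit between 91.0% and 94.0% in every library, above 55.3% to 61.4% for all genes.

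Members of every cluster were called. All 10 Hist2 genes, both Hist3 genes and Hist4h4 were called in every library, as were 21 of 23 members of the first Hist1 block and 25 of 31 of the other. By family, 12 of 13 H4, 17 of 18 H2B, 16 of 18 H2A, 11 of 12 H3 and 3 of 6 H1 genes were called in every library. Of 49 other protein-coding genes between the outermost Hist1 members, 36 are Vmn1r genes, which encode vomeronasal receptors, and these were called in no library. Of the other 13, 9 were called in at least 1 library and 4 in all. Inside the blocks themselves lie 3 and 6 other genes, of which 0 and 3 were called in none.

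Of the 4 members never called, 3 are the germ-cell members. Hist1h1t (H1t of spermatocytes) and the head-to-head pair Hist1h2aa and Hist1h2ba, which encode H2A and H2B of the testis, had no peak within 1 kb of the gene in any of the 18 libraries. The neighbour of Hist1h1t, Hist1h4c, was called in all. Of the replication-independent histone genes of germ cells, 6 of 6 were called in none (H1foo, H1fnt, Hils1, H2afb1, H2afb2 and H2afb3). The remaining member, Hist1h1d (H1.3), has its annotated start at chr13:23553262, and the start of the same gene in RefSeq (symbol H1f3) lies 1770 bp away. At the RefSeq start a peak was called in 18 of 18 libraries, and within 1 kb of the gene every library held 2 or 3 peaks. With RefSeq starts, 60 members were called in every library.

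The 4 members called in some libraries were among the weakest. Hist1h2af, an H2A gene, was missed in 3mo untreated 5 alone, and Hist1h4m, an H4 gene, in 18mo untreated 6 alone. Hist1h1b, the gene of H1.5, was called in 13 libraries. It was missed in 1 of 9 libraries at 3mo (untreated 4) and in 4 of 9 at 18mo (untreated 5, contralateral 1 and 3, IOP 3). The rank of its peak, the percentile of −log10 q among all peaks of the same library (100 is the strongest), was 7.20 to 40.6 where it was called. Hist1h3d, an H3 gene, was called in 11 libraries and missed in 3mo untreated 5, 3mo contralateral 3, 3mo IOP 3, 18mo untreated 5 and 6 and 18mo IOP 2 and 3. No group had all 3 of its libraries without a call for either gene.

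Asked whether calls differed by age among the 12 control libraries, by kind of control, or after IOP, Fisher's exact tests (stratified by age for IOP) had no member to test. A promoter can reach p under 0.05 only if it is called in some of the libraries and missed in enough of them, and 0 of 67 members were so placed in any of the 3 comparisons. Among all genes, 512, 512 and 271 promoters could be tested and 0 passed after adjustment in each. At an unadjusted p under 0.05 there were 8 by age (1.56%), 104 by kind of control (20.3%) and 6 after IOP (2.21%). Promoters called in all 3 libraries of one group and none of the other (3 against 3, where an exact test cannot go below 0.1) were also counted. After IOP there were 0 such members at 3mo, against 15 of 21938 genes (0.0684%), and 0 at 18mo, against 52 (0.237%). With 1 library left out, which leaves an easier rule of 2 against 3, the counts over all genes were up to 80 and 156. Hist1h3d came closest: it was called in 3 of 3 contralateral and 1 of 3 IOP libraries at 18mo. With a window of 250 bp on either side of the start it was called in 3 and 0, beside 54 of 21938 genes gained or lost.

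Where the start of the gene lay within its peak depended on the family. Over the members and libraries, the share of starts with a peak over a given distance was 99.6% for H4 genes at every step of 20 bp from −60 to 60 bp, and for H2A genes it was nearly level there (92.3% to 93.2%). For H2B genes it was highest at −160 and −140 bp (94.1%) and was 88.6% at the start. It was highest at the start itself for H3 genes (80.1%) and H1 genes (60.2%), and reached 48.9% for all protein-coding genes. At 500 bp upstream the cover was 73.2% for H2B and 43.2% for H2A genes, against 10.3% for H4 genes and 11.6% for all genes. Partner genes and other members lie at such distances, so the outer parts of the profile are not upstream sequence of 1 gene alone.

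**Figure D2:**
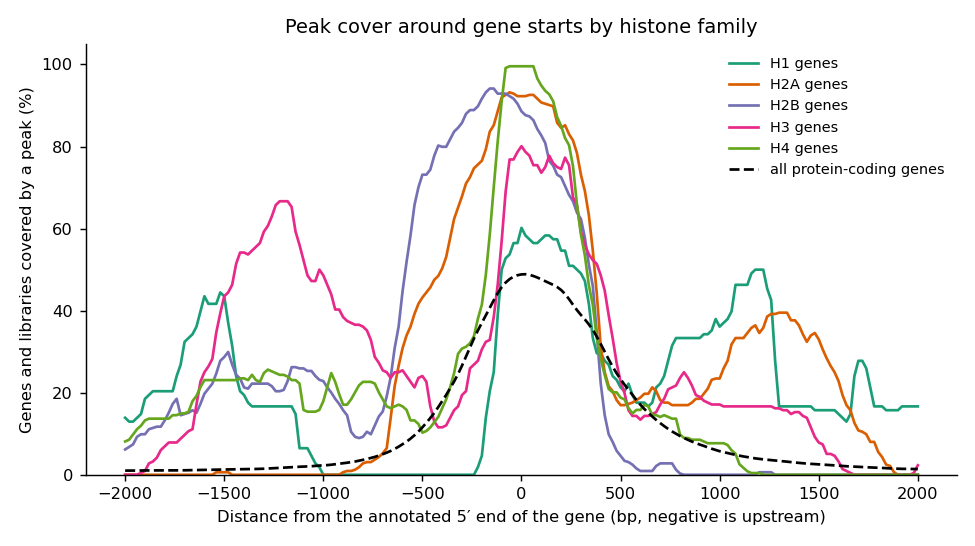
Share of gene-library pairs covered by a listed peak (%, vertical axis) against distance from the annotated 5′ end of the gene (bp, horizontal axis, negative upstream), for H1, H2A, H2B, H3 and H4 members (coloured lines) and all protein-coding genes (dashed). H4 genes stay at 99.6% from 60 bp upstream to 60 bp past the start and H2B genes reach 94.1% at 160 bp upstream, against 48.9% at most for all genes.

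There were 13 pairs of members on opposite strands whose starts lie within 1 kb, 12 of an H2A with an H2B gene and 1 of an H2B with an H3 gene, with 176 to 660 bp between the starts (median 268). Of the 26 genes in such pairs, 24 were called in every library and the other 2 are the germ-cell pair Hist1h2aa and Hist1h2ba. Merged over the libraries, the peaks at member promoters formed 49 regions of median width 1002 bp, of which 41 were present in all 18 libraries. In 21 of these regions 2 or 3 members shared 1 region, and 42 members shared a region with another. The 59 members called everywhere therefore rest on 46 distinct series of peaks. The 4 regions with 3 members held Hist1h2bl, Hist1h2ai and Hist1h3h, then Hist1h4n, Hist1h2ap and Hist1h2br, then Hist1h2bf, Hist1h2ad and Hist1h3d, and on chromosome 3 Hist2h2ab, Hist2h2ac and Hist2h2be.

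Because of this packing, the peak over a promoter is in places a neighbour's. For 52 of the 63 members ever called, the summit of the strongest peak lay within 250 bp of the start (median over libraries), but for 10 it lay more than 500 bp away, as for Hist1h4n and Hist1h3b. At Hist1h1c it lay 983.5 bp past the start, in a region with no other member, and a summit fell inside the promoter window in 6 libraries. Where the summit itself had to fall inside the window, 36 members (53.7%) were called in every library, against 41.8% of all genes. Among the 23 members lost in that way, Hist2h2ac kept 3 libraries, Hist1h3h 4 and Hist2h2ab 5. With the window of 250 bp on either side of the start, 60 members (89.6%) were called in every library against 51.2% of all genes.

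In rank, histone promoters were not among the strongest. The median over the 59 members called in every library was a percentile of 80.8, against 88.4 for all 11354 such promoters (quartiles 79.8 and 94.1). Mean fold over background at the summit was 3.72 to 14.3 for the 63 members (median 8.79). Over the 63 members ever called, family medians of the percentile were 83.7 for H2B, 82.8 for H2A, 76.0 for H1, 75.1 for H3 and 73.8 for H4 genes. Members with a head-to-head partner had a median of 83.5 and those without one 77.7. The 4 members called in only some libraries are all without a partner. Of the 13 pairs, 12 are of an H2A with an H2B gene, so the comparison by partner is in large part one by family. Some H2A and H2B genes have no partner, and their means ran from 59.4 (Hist1h2af) to 93.6 (Hist2h2aa1). Those of H2A and H2B genes with a partner ran from 59.4 (Hist1h2ad) to 92.2 (Hist1h2ac). Whether a partner matters within a family was not tested.

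**Figure D3:**
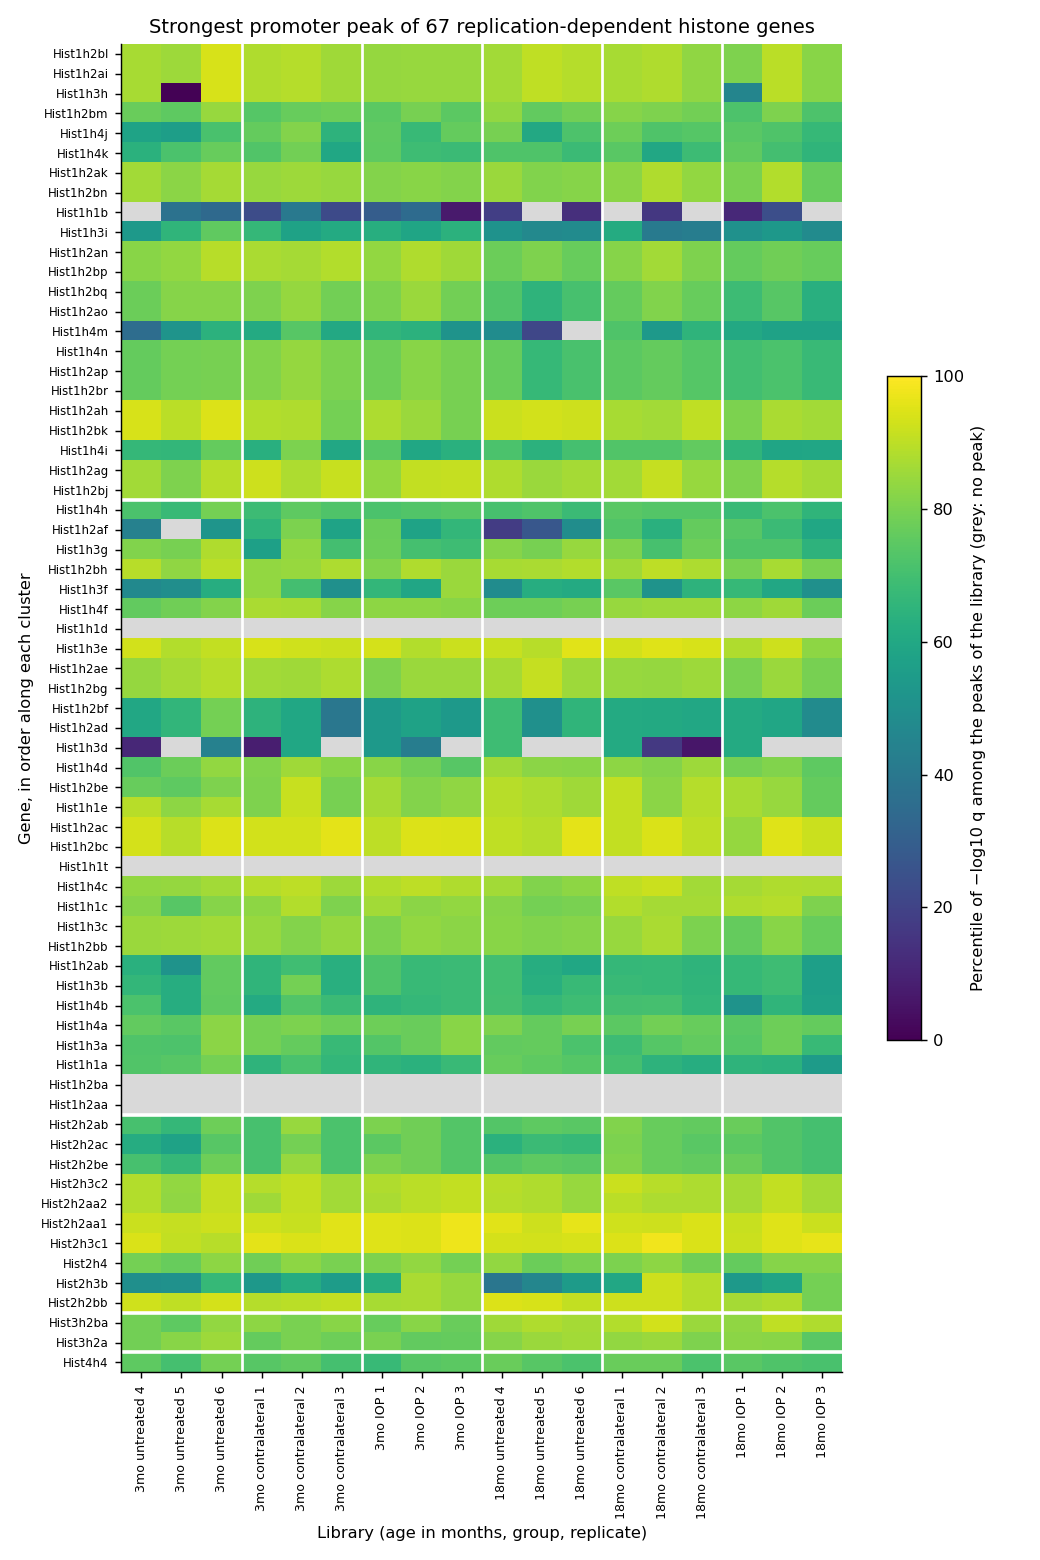
Percentile of −log10 q of the strongest promoter peak within its library (colour, 0 to 100; grey where no peak was listed) for the 67 members (rows, in order along each cluster, white lines between clusters) in the 18 libraries (columns, white lines between groups). Rows differ far more than columns: the germ-cell members Hist1h1t, Hist1h2ba and Hist1h2aa and Hist1h1d are grey throughout, while Hist2h3c1 averages 94.4.

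The highest members were Hist2h3c1, with a mean percentile of 94.4 ± 2.16 (SD, n = 18), and its neighbour Hist2h2aa1 with 93.6 ± 1.93. Hist2h3c1 ranged from 89.3 to 98.0 over the libraries. They encode H3 and H2A in the Hist2 cluster and had 1 common peak in 6 libraries. The pair Hist1h2ac and Hist1h2bc followed at 92.2 ± 3.11, then the H3 gene Hist1h3e at 91.5 ± 3.12. These highest members overlap in range and are not separated by their spread. Of the promoter window of Hist2h3c1, 82.2% of 100-base stretches recur elsewhere in the assembly, so that reads from its near-identical copy Hist2h3c2 (88.5 ± 2.27) could not always be told apart.

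The lowest of the members called everywhere were Hist1h3i, an H3 gene, at 56.1 ± 9.19, Hist1h2bf and Hist1h2ad at 59.4 ± 8.57, the H3 gene Hist1h3f at 61.9 ± 11.5 and Hist2h3b, also H3, at 63.6 ± 16.0. Hist1h2ad ranged from 39.8 to 79.2. These means too lie within each other's spread. The H1 genes called everywhere were Hist1h1e (H1.4, 85.3 ± 4.15), Hist1h1c (H1.2, 83.5 ± 3.98) and Hist1h1a (H1.1, 68.5 ± 6.09), all above Hist1h1b (24.1 ± 10.6 over its 13 libraries).

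Some values went with how far peaks reached. Hist2h3b lies next to Hist2h2bb, and in 5 libraries (3mo IOP 2 and 3, 18mo contralateral 2 and 3, 18mo IOP 3) 1 peak covered both promoters. There Hist2h3b had percentiles of 79.2 to 92.2, while in the 13 libraries with a peak of its own it had 39.4 to 67.0. Hist1h3d took the peak of Hist1h2ad in 5 libraries (54.0 to 69.1) and had 6.22 to 43.9 in the 6 others where it was called. Hist1h3h took the peak of Hist1h2ai in 16 libraries (82.2 to 93.9) and had 0.444 and 45.7 in the remaining 2. Peaks were narrower in the untreated libraries. The median width of the strongest peak at the 59 members was 508 to 706 bp in untreated libraries and 789 to 1030 bp in the other 12, and at all 11354 promoters it was 606 to 717 and 803 to 935 bp. Of the 59 members, 15 to 18 had more than 1 peak in the window in untreated libraries and 9 to 15 in the others.

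The genes that act on histone genes were called throughout. All 10 regulators of their transcription had a promoter peak in all 18 libraries (median percentile 94.6), among them Npat (97.4), Hinfp (99.5) and Casp8ap2 (99.6), which encodes a protein of the histone locus body. All 9 genes of 3′ end processing and turnover did too (median 93.4), with Slbp, which encodes the stem-loop binding protein, at 95.9. Of 11 somatic replication-independent histone genes, 10 were called in every library (median 86.6). H2afv reached 99.3, H3f3b 95.5 and H2afz 92.0, and H1fx was the lowest at 25.8. Of the genes of dividing cells, 8 of 8 (Mki67, Top2a, Ccna2, Ccnb1, Cdk1, Mcm5, Pcna and Rrm2) were called in all libraries, with a median percentile of 94.4. Among 18 markers of retinal cells, 9 were called in every library and 1 (Sncg) in none. No peak was called at the promoters of the 2 lens, 3 microglia, 2 vessel and 2 blood markers looked at, and of 3 pigment epithelium markers 2 were called in none.

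To ask whether these ranks differ with age, the 6 control libraries of each age were compared with limma over the 11354 promoters called in every library, in a fit with 1 mean for each of the 6 groups that averaged the age difference over both kinds of control. No histone promoter passed at an adjusted p under 0.05, and 15 of all promoters did (0.132%). The median difference, 18mo minus 3mo, was −0.06 percentile points for the 59 members and 0.61 for all promoters, with 29 members above 0. At an unadjusted p under 0.05 there were 10 members, on 6 distinct peaks, and 6.16% of all promoters. Of the 10, Hist3h2ba and Hist1h2be were higher at 18mo, the latter with the same values as Hist1h1e in every group but 3mo untreated. The other 8 were lower and lie in the first Hist1 block from Hist1h3i to Hist1h2br.

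Hist3h2ba, an H2B gene of the Hist3 cluster, had the smallest p. Its percentiles were 78.7, 75.1 and 83.6 in 3mo untreated and 82.9, 79.8 and 82.4 in 3mo contralateral libraries. At 18mo they were 85.6, 88.0 and 86.6 in untreated and 88.4, 93.2 and 85.1 in contralateral ones. The control libraries of both ages did not overlap (means 80.4 ± 3.21 and 87.8 ± 2.92, SD, n = 6 each). The difference was 7.39 ± 1.93 points (SE, limma, adjusted p = 0.351), 7.61 among untreated and 7.17 among contralateral libraries. With the shortest listed peak of each library as a covariate it was 7.96 (limma, adjusted p = 0.0328). In that setting 31 of all 11354 promoters passed (0.273%).

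Hist1h4n, Hist1h2ap and Hist1h2br share their strongest peak and had identical values. For Hist1h4n its summit lay at −1425.5 bp from the start (median over libraries), near the other 2 genes. A separate region over the start of Hist1h4n was present in all 18 libraries, and the values given here are not those of that region. These were 76.3, 79.2 and 79.6 in 3mo untreated, 81.1, 84.1 and 80.1 in 3mo contralateral, 76.8, 66.8 and 71.3 in 18mo untreated and 74.8, 76.4 and 73.5 in 18mo contralateral libraries. The older libraries lay lower but the ranges overlapped by 2 libraries at 18mo. The difference was −6.82 ± 2.03 (SE, limma, adjusted p = 0.463). With the same number of peaks, 36011, kept from each library, it was −12 ± 2.67 (adjusted p = 0.0252).

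Hist1h2bq and Hist1h2ao, the neighbouring pair, had 77.6, 82.0 and 81.7 in 3mo untreated, 80.8, 84.1 and 78.7 in 3mo contralateral, 72.7, 64.9 and 70.9 in 18mo untreated and 76.4, 81.1 and 76.7 in 18mo contralateral libraries. The untreated libraries of both ages did not overlap and the contralateral ones did. The difference was −7.02 ± 2.28 (SE, limma, adjusted p = 0.560), −10.9 among untreated and −3.17 among contralateral libraries, and −12.4 ± 2.65 with equal numbers of peaks (adjusted p = 0.0213). Hist1h2an and Hist1h2bp, also one shared peak, differed by −5.63 ± 1.68 (SE, limma, adjusted p = 0.463). Hist1h3i, at the edge of this stretch, had 63.3 ± 7.58 at 3mo and 48.5 ± 7.40 at 18mo (SD, n = 6 each, difference −14.8 ± 4.46, SE, limma, adjusted p = 0.475).

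Equal numbers of peaks gave 6 members past the threshold, against 136 of 10832 promoters (1.26%). Hist1h2be was higher and Hist1h2bq, Hist1h2ao, Hist1h4n, Hist1h2ap and Hist1h2br were lower. Hist1h2bq and Hist1h2ao share 1 peak, and Hist1h4n, Hist1h2ap and Hist1h2br share 1, so the 6 are not 6 separate results. In the promoter windows of Hist1h2bq, Hist1h2ao, Hist1h2ap and Hist1h2br 100% of 100-base stretches recur elsewhere in the assembly, and in that of Hist1h4n 94.5%, so reads of the copies there could not always be told apart. Of the 67 members, 9 have over 50% of the window repeated and 27 none of it. Hist1h2be (6.74 ± 2.34, SE, limma, adjusted p = 0.607) has its outermost annotated start inside Hist1h1e. Its values equalled those of Hist1h1e in every group but 3mo untreated. There it had 76.7, 75.1 and 80.5, against 89.1, 83.2 and 87.0 for Hist1h1e. Hist1h1e itself differed by 2.26 ± 2.31 (SE, limma, adjusted p = 0.876).

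**Figure D4:**
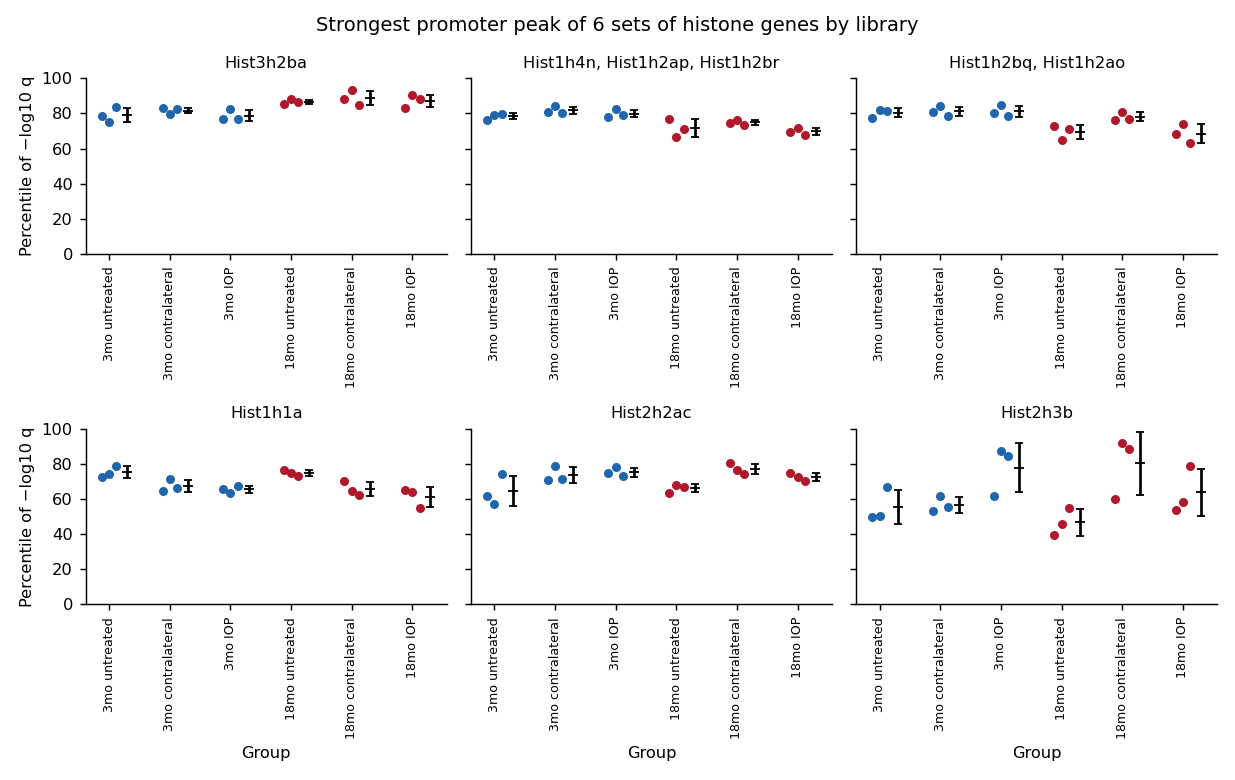
Percentile of −log10 q of the strongest promoter peak (vertical axis, 0 to 100) by group (horizontal axis) for 6 sets of members; points are libraries (blue 3mo, red 18mo) and black bars mean ± SD of 3 libraries. Hist3h2ba lies higher and the Hist1h4n and Hist1h2bq sets lower in 18mo controls, Hist1h1a is highest in untreated libraries, and Hist2h3b has high points only where its peak is joined with that of Hist2h2bb.

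Ranks of single promoters differed between the 6 untreated and 6 contralateral control libraries. Here 9 members passed the test, 3 higher and 6 lower in untreated retina, beside 2265 of all 11354 promoters (19.9%). The share of the members, 9 of 59, was close to that background. Their median difference, untreated minus contralateral, was −0.86, and that of all promoters −0.60. The direction of the calls depended on the scale: on log2 fold at the summit 15 members passed, 12 higher and 3 lower, beside 29.6% of all promoters (1735 higher, 1627 lower). Ranked among promoters alone 10 passed, 6 higher and 4 lower, beside 30.6%. With the shortest listed peak as a covariate 9 passed, all lower, beside 35.6% (256 higher, 3788 lower). The shortest listed peak was 79 to 89 bp in untreated and 114 to 157 bp in all other libraries, and it cannot be told apart from the kind of control.

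Hist1h4f (H4) showed the smallest p. It ranged from 76.0 to 81.6 (median 78.3) in untreated and from 81.7 to 87.4 (median 85.4) in contralateral libraries, without overlap, a difference of −6.65 ± 1.74 (SE, limma, adjusted p = 0.0126). Hist2h2ac (H2A) was lower in untreated retina too, with 57.5 to 74.2 against 70.9 to 80.4 (−10.2 ± 2.78, adjusted p = 0.0153). Its values were those of its neighbour Hist2h2ab in 3mo contralateral 1 and 3 and 18mo contralateral 2 (70.9, 71.6 and 76.9). In every untreated library and the other contralateral ones it was below Hist2h2ab. Whether shared peaks account for the difference was not tested. Hist1h1a (H1.1) went the other way, with 72.9 to 79.1 in untreated and 62.3 to 71.3 in contralateral libraries (8.54 ± 2.65, adjusted p = 0.0301). The pair Hist1h2ah and Hist1h2bk was higher too (6.22 ± 1.92, adjusted p = 0.0296), with 89.8 to 94.8 against 79.0 to 90.5. Hist1h4c (−4.76 ± 1.45, adjusted p = 0.0284) and Hist1h1c (−5.92 ± 1.94, adjusted p = 0.0375) were lower. So were Hist2h3c1 (−2.98 ± 0.995, adjusted p = 0.0408) and Hist2h3b (−17.3 ± 5.98, adjusted p = 0.0475), the latter being a member whose value moved with joined peaks. With 1 library left out in turn 2 to 9 members passed. The count fell to 5 without 3mo untreated 4 or 18mo untreated 4, to 4 without 3mo contralateral 1 or 3, 18mo untreated 6 or 18mo contralateral 1, and to 2 without 18mo untreated 5 or 18mo contralateral 2.

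After raised IOP no histone promoter passed the test of rank at either age. At 3mo 0 of 59 members and 0 of 11354 promoters (0%) passed at an adjusted p under 0.05 (limma), with 1 member and 86 promoters (0.757%) at an unadjusted p under 0.05. At 18mo 0 members and 0 promoters passed, with 11 members and 1700 promoters (15.0%) unadjusted. That 11 was 2 without 18mo IOP 3, 5 without 18mo IOP 1 or 18mo contralateral 2, 5 with the replicate block, 2 with equal numbers of peaks and 1 among promoters alone. It rose to 15 without 18mo IOP 2 and to 12 with the shortest peak as a covariate or with RefSeq starts. The unadjusted share of all promoters was counted in the main setting only. These other counts therefore cannot be set beside a background. The difference of the IOP effect between the ages gave 0 and 0, with 3 members and 603 promoters (5.31%) unadjusted. On log2 fold at the summit 0 members passed in each of the 3 as well.

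The median difference at 3mo, IOP minus contralateral, was −0.86 points for the members and 0.18 for all promoters, but without 3mo contralateral 2 it was 0.45 and 1.77, and among promoters alone −1.81 and −0.01. At 18mo it was −3.45 for the members and −2.68 for all, with 56 of 59 members below 0, but among promoters alone the members' median turned to 1.80 (all 0.21) and with equal numbers of peaks to 1.92 (all 0.18). The 18mo IOP libraries list fewer peaks (36011 to 48723) than the 18mo contralateral ones (51166 to 60755). The percentile is taken among all peaks of a library, and whether their number accounts for the shift was not tested. The libraries of both groups did not overlap for 9 members at 3mo (1 higher, 8 lower, on 5 distinct peaks) beside 3.04% of all promoters, and for 13 at 18mo (all lower, on 9 distinct peaks) beside 22.8%. Ranked among promoters alone these counts were 0 at 3mo, beside 6.11% of all promoters, and 2 at 18mo, beside 14.1%. No member was fully separated at both ages in opposite directions (0 of 59, against 0.106% of all promoters).

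The members with the smallest p at 18mo were Hist2h2bb and the pair Hist1h2bq and Hist1h2ao. Hist2h2bb, an H2B gene, had 92.4, 92.2 and 88.9 in 18mo contralateral and 86.6, 87.9 and 79.2 in 18mo IOP libraries, without overlap (−6.59 ± 2.10, SE, limma, adjusted p = 0.326). At 3mo it had 88.8, 89.8 and 90.7 against 86.9, 87.3 and 84.4 (−3.58 ± 2.10, adjusted p = 1.0). Hist1h2bq had 76.4, 81.1 and 76.7 against 68.4, 73.9 and 63.0 at 18mo (−9.60 ± 3.23, adjusted p = 0.326). Among the 3 members with the smallest p at 3mo was also Hist2h2aa1 (2.53 ± 1.40, adjusted p = 1.0). The contralateral libraries also serve as controls in the comparison by age.

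Hist2h3b had the smallest p for a difference between the ages, before the pair Hist1h2bq and Hist1h2ao (−9.67 ± 4.57, limma, adjusted p = 0.671). It had 53.2, 61.9 and 55.3 in 3mo contralateral and 61.9, 87.3 and 84.4 in 3mo IOP libraries (21.1 ± 8.45, SE, limma, adjusted p = 1.0), and 60.0, 92.2 and 88.9 in 18mo contralateral against 53.9, 58.5 and 79.2 in 18mo IOP libraries. The difference of the effects was −37.6 ± 12 (SE, adjusted p = 0.671), and each of its values over 70 came from a library where its peak was joined with that of Hist2h2bb.

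**Figure D5:**
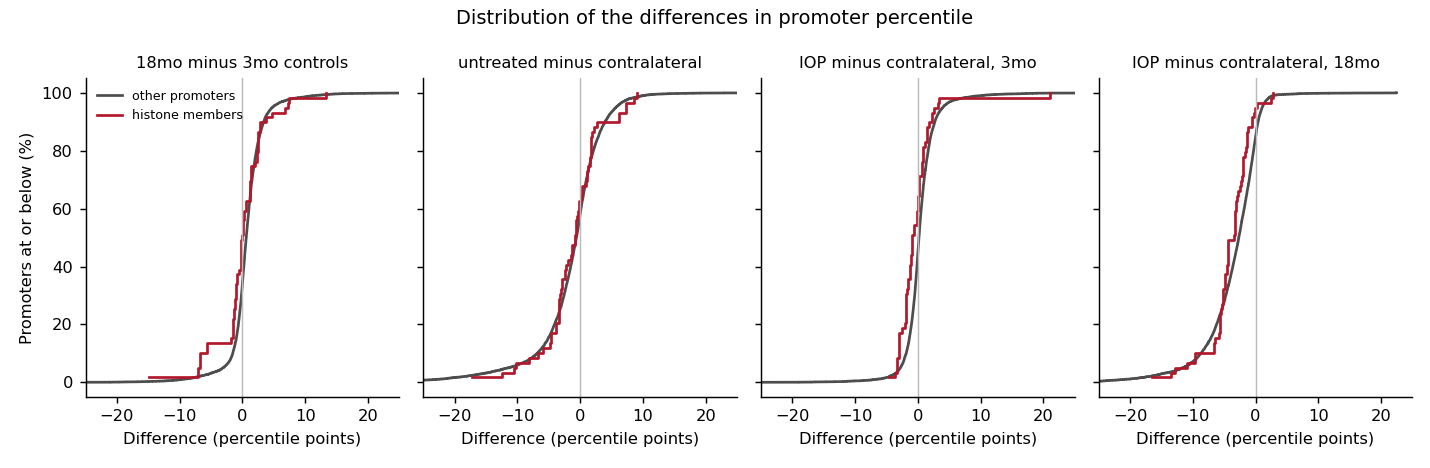
Cumulative share of promoters (%, vertical axis) by the difference in percentile of −log10 q (percentile points, horizontal axis) in 4 comparisons, for the 59 histone members (red) and the other promoters called in every library (grey). The red and grey lines run close together; at 18mo both lie left of 0, with medians of −3.45 for the members and −2.68 for all promoters.

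Among the regulators of histone genes 0 of 10 for transcription and 0 of 9 for processing passed the test by age or after IOP, and the 10 replication-independent genes and 8 genes of dividing cells also gave 0. Between the kinds of control, Npat, Nfya and Coil and the processing genes Lsm11, Sympk and Cpsf3 were lower in untreated retina, as were H2afv, H3f3b and the retina marker Slc6a9, while Cdk1 was higher, beside 19.9% of all promoters called in that comparison. In bulk retina a change in the share of a cell type and a change of chromatin within it cannot be told apart, and the p-values measure the spread between libraries, each made from retina of 1 eye, of replicates that the study calls biological. Which IOP and contralateral retinas came from the same animal is not given in the sources used here.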

How the data were processed

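ATAC-seq peaks of 18 whole-retina libraries were analysed. The authors had aligned reads to mm10 and called peaks for each library alone with MACS2 at a q-value of 0.05; the submitters' processing notes also name STAR 2.7.8a, HOMER, edgeR and bedtools 2.29.2, without their roles. The labels' extraction text describes crosslinking, whereas the methods of the study give transposition of nuclei. The deposited lists give a fold ratio at the summit, a −log10 p-value, a −log10 q-value and a score for each peak; the score was not used. Gene starts came from GENCODE M21 (basic set) and sequence from GRCm38.

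Promoters ran from 1 kb before to 100 bp after any annotated start. Each promoter took the peak with the highest −log10 q, as its percentile among all peaks of the library. Calls were tested with two-sided exact tests, and percentiles with limma 3.58.1 (R 4.3.3) over promoters called in all 18 libraries, with Benjamini-Hochberg adjustment. The percentile is taken among the listed peaks of a library, whose number differs between libraries, and peak depth is otherwise unknown. Scripts ran in Python 3.11.15 and were tested on simulated data.

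Named were members not called in every library, those past a test or, where under 3 passed, the 3 of smallest p, the 5 highest and lowest, the H1 and germ-cell genes and those sharing a region with the most others. The members and lists were chosen with earlier results of these data known.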

Additional observations from a re-analysis of the deposited data

How the results depend on the processing

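Windows, peak overlap, threshold, number of peaks, gene starts, scale and covariates were varied, and RefSeq starts and the rank among promoters alone were added after seeing the data. The count of members called in every library was 36 where the summit had to lie in the window and 58 to 60 under the other settings (59 to 60 without 1 library). By summit, 1 member was gained or lost after IOP at 3mo (Hist1h4h, gained), beside 21 of all 21938 genes. At 18mo there was also 1 by summit (Hist1h4k, lost), beside 66 of all genes. Hist1h3d was lost at 18mo with the window of 250 bp, beside 54 of all genes gained or lost. It was also lost without 18mo IOP 1, beside 156 of all genes (0 to 1 members without 1 library). The rank by age called 6 members with equal numbers of peaks (1.26% of all promoters), some of them on shared peaks. With the shortest peak as a covariate it called 1 (0.273% of all promoters). The rank by kind of control called 5 by summit (19.3% of all promoters), 15 with equal numbers of peaks (37.8%), 15 on log2 fold (29.6%), and 2 to 9 without 1 library (13.3% to 25.4%). With the shortest peak as a covariate Hist2h3c1 turned from −2.98 to 0.175 points. Calls by age, by kind and after IOP, and ranks after IOP, gave 0 members under every setting run. For calls this says little, since few members could be tested. By summit 6 could be tested by age, 6 by kind and 8 after IOP, and under every other setting 0 to 2. At an unadjusted p under 0.05 (exact test) 3 members passed by kind by summit, beside 131 of 717 promoters.

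The replicate block, pairing IOP and contralateral libraries of 1 number and age, gave 0 members in ranks. In calls it had 0 members, and only 14 of all promoters, that could be tested. Same-numbered libraries correlated at −0.422, −0.377 and 0.222 at 3mo and 0.443, 0.00736 and −0.195 at 18mo over promoters, so the numbers were not taken to pair retinas.

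Read depth was not analysed here, so how close an uncalled promoter came to the threshold is unknown.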
